A study of Saccharomyces cerevisiae with 6 samples.

Results

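The peroxisomal fatty acid oxidation genes of budding yeast, Saccharomyces cerevisiae, are described here as 10 genes chosen by name: POX1, FOX2, POT1, ECI1 and SPS19 for the beta-oxidation enzymes, FAA2, PXA1 and PXA2 for activation and import of the fatty acids, and OAF1 and PIP2 for the activators of the pathway. They are 10 of the 5449 S. cerevisiae genes that the array could be matched to. Each had 1 probe set, none of them marked by the manufacturer as able to cross-hybridise. The study compared an rph1 deletion strain (3 arrays) with a wild-type strain (3 arrays). Both are of the W303 laboratory background and grew in rich medium (YPD) to log phase, so the strains share all but the deletion as far as the labels say. RPH1 encodes a histone demethylase with zinc fingers that represses transcription, and the comparison asks which genes it controls in unstressed cells. The sources used here do not say whether the deletion strain was a single clone. The design text calls the 3 samples of a strain biological, without naming separate cultures, so the p-values measure the spread between these samples.

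In yeast, fatty acids are broken down by beta-oxidation in the peroxisome alone. The genes are held down by glucose, and are switched on when oleate is the carbon source by a pair of zinc-cluster proteins, Oaf1 and Pip2, together with the activator Adr1. Fatty acids enter as acyl-CoA through an ABC transporter built of Pxa1 and Pxa2, or are activated inside by Faa2, and the enzymes then shorten the chain step by step. YPD contains glucose, a condition in which the pathway is known to be held low.

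The deposited values are signals per probe set on a linear scale, and log2 of the signal was tested with limma. A difference is the rph1 deletion minus the wild type on the log2 scale, and p-values were adjusted by Benjamini-Hochberg over the 5402 genes tested. The deletion was seen at RPH1 itself, which read 4.52, 8.18 and 8.99 in deletion replicates 1, 2 and 3, against 305, 362 and 385 in wild type replicates 1, 2 and 3. RPH1 was at least 35.2-fold lower (limma adjusted p = 0.00196), as 1 of the 3 deletion arrays read above background. The median signal of the tested genes ran from 598.8 to 628.1 over the arrays. Fission yeast probe sets, which share the array and have no target in these samples, gave a background signal of 8.59 to 12.7 depending on the array. All 10 genes read above it on every array. The 10 measured markers of fermenting growth, such as PDC1 and ADH1, read from 4424 to 9115. The 15 markers of cells short of glucose, such as FBP1 and PCK1, read from 11.7 to 3519.

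The replicates were not alike. The labels give the 2 arrays of replicate 1, 1 of each genotype, a sample code of digits alone, and replicates 2 and 3 a code with letters. The arrays differed along that line in 1992 of the 5402 genes (36.9%) at a limma adjusted p under 0.05, in a fit with genotype and sample code, added after the data were seen. What the code form stands for is not given in the sources used here. Each of the 10 genes is therefore also given pair by pair. The replicate number (the replicate block) or the code form was also fitted as a term, and those values are given where a count or a gene differs by them.

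None of the 10 genes passed the test between the strains. Over all genes the test called 2 of 5402 (0.037%), RPH1 and ECM23, the second named after its values were seen, and both were lower in the deletion. The replicate block brought this to 6 genes (0.111%), 3 higher and 3 lower in the deletion. The code form term brought it to 34 (0.629%), 29 higher and 5 lower. Neither called any of the 10 genes. At an unadjusted limma p under 0.05 there were 0 of the 10 genes, against 288 of all genes (5.33%). With the replicate block there were 2 of the 10, POX1 and PXA2, against 701 of all genes (13%), and with the code form term also 2, against 786 (14.6%). Of the 10, 5 were higher and 5 lower in the deletion, with a median difference of 0.0015, against 0.0012 over all tested genes. The 95% intervals of all 10 lay within 1 log2 unit of 0, which also held for 95.6% of all genes. The interval lay within 0.5 log2 units for 5 of the 10, against 4032 of the 5402 genes tested. A change of the signal in either direction of 2-fold or more therefore lies outside the interval of each of the 10 genes. For POT1 and POX1, the dimmest of the 10, this bounds a signal near background and need not hold for the RNA. POT1 read 1.03 to 2.73 times background, and POX1 read 16.2 to 33.0 against a background of 8.59 to 12.7.

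**Figure D1:**
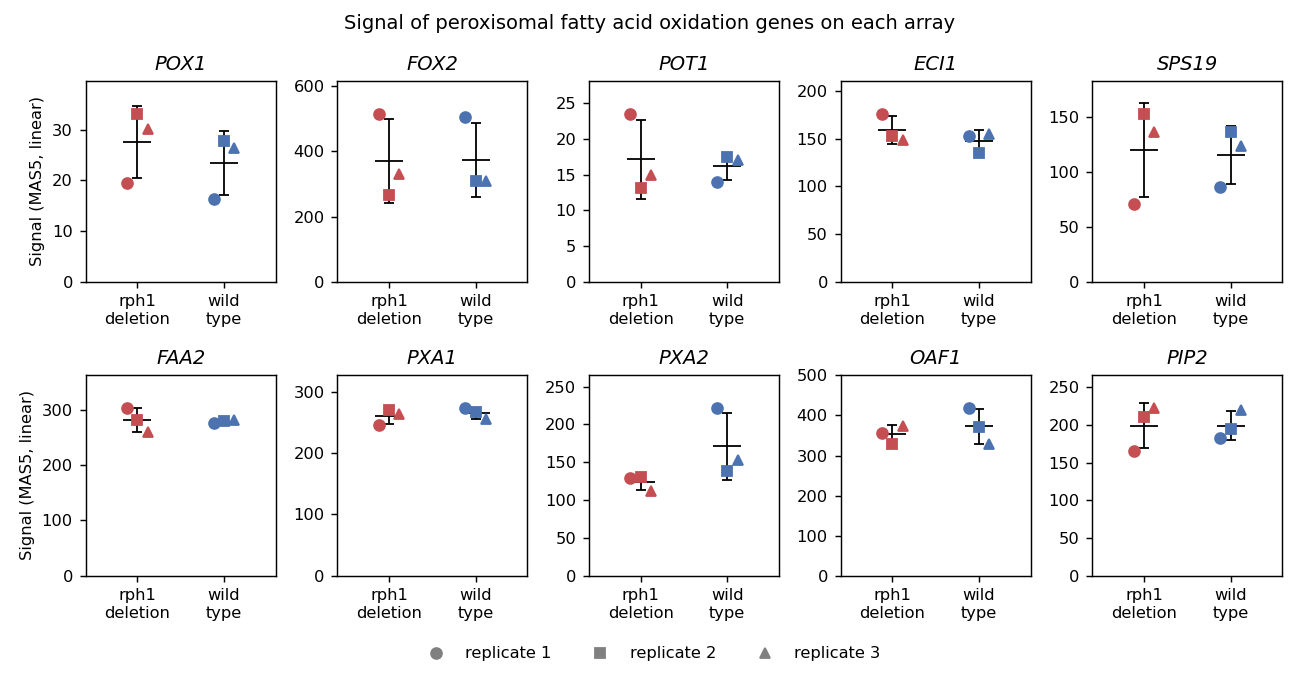
Signal of the 10 genes on each array (linear MAS5 units, axis from 0), rph1 deletion on the left and wild type on the right of each panel. Points are arrays, marked by replicate number, and bars are the mean ± SD of 3 arrays. PXA2 is the panel in which all deletion arrays lie below all wild-type arrays, and in POX1, FOX2 and SPS19 replicate 1 stands apart in both strains.

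POX1 encodes acyl-CoA oxidase, the enzyme of the first step, which makes hydrogen peroxide. POX1 read 19.6, 33.0 and 30.2 in deletion replicates 1, 2 and 3, against 16.2, 27.8 and 26.5 in wild type replicates 1, 2 and 3. The groups overlapped because replicate 1 was low in both strains, but the deletion was higher in every pair of the same number, by 0.27, 0.25 and 0.19 on the log2 scale. The difference was 0.24 (SE 0.28, limma adjusted p = 1.00), and its SE was 0.057 once the replicate number was a block (adjusted p = 0.190). POX1 was the 1 gene of the 10 higher in all 3 pairs, a pattern that 19.9% of all genes showed. The POX1 signals were dim, beside a background of 8.59 to 12.7 depending on the array. With an offset of 32 added before the log, the POX1 difference was 0.10.

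FOX2 encodes the multifunctional enzyme of the next steps, a hydratase and dehydrogenase in a single protein. Its signals were 513, 265 and 330 in deletion replicates 1, 2 and 3, against 506, 309 and 309 in wild type replicates 1, 2 and 3. Here replicate 1 was the bright one in both strains and the groups overlapped. The difference was -0.04 (SE 0.30), and the pairs differed by 0.02, -0.22 and 0.09.

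POT1 encodes the thiolase that releases acetyl-CoA. POT1 read 23.4, 13.1 and 15.0 in deletion replicates 1, 2 and 3, against 14.0, 17.4 and 17.0 in wild type replicates 1, 2 and 3. It lay close to background, at 1.03 to 2.73 times the background signal of the same array. The highest and the lowest readings were both deletion arrays. The pairs differed by 0.74 in replicate 1 and by -0.41 and -0.18 in replicates 2 and 3, so that the mean of 0.05 (SE 0.22) covers both directions. In replicates 2 and 3 alone the difference was -0.30 (SE 0.087, limma adjusted p = 0.340). The test of whether the strain difference itself changed between replicate 1 and the other replicates gave -1.04 (SE 0.15, limma adjusted p = 0.392).

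ECI1 and SPS19 act on unsaturated fatty acids, as an enoyl-CoA isomerase and a dienoyl-CoA reductase. ECI1 read 175, 153 and 149 in deletion replicates 1, 2 and 3, against 153, 135 and 155 in wild type replicates 1, 2 and 3, a difference of 0.10 (SE 0.099). The ECI1 pairs differed by 0.20, 0.18 and -0.06. SPS19 read 70.8, 152 and 136 in deletion replicates 1, 2 and 3, against 85.7, 136 and 123 in wild type replicates 1, 2 and 3, a difference of 0.0088 (SE 0.32). Both genes overlapped between strains, and SPS19 was low in replicate 1 of both. The SPS19 pairs differed by -0.27 in replicate 1 and by 0.16 and 0.14 in replicates 2 and 3.

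Of the genes for activation and import, FAA2 and PXA1 had differences close to 0 and a narrow spread. FAA2, the peroxisomal acyl-CoA synthetase, read 303, 282 and 261 in deletion replicates 1, 2 and 3, against 276, 280 and 282 in wild type replicates 1, 2 and 3. The difference was 0.01 (SE 0.081), with a 95% interval of -0.18 to 0.21 and pairs at 0.13, 0.01 and -0.11. PXA1 read 246, 270 and 263 in deletion replicates 1, 2 and 3, against 273, 267 and 255 in wild type replicates 1, 2 and 3. Its difference was -0.03 (SE 0.075), with a 95% interval of -0.21 to 0.15 and pairs at -0.15, 0.02 and 0.05. These are the tightest intervals of the set, and in both genes the strains overlapped.

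PXA2, which encodes the partner of Pxa1 in the transporter, showed the largest difference of the set. PXA2 read 129, 131 and 112 in deletion replicates 1, 2 and 3, against 221, 139 and 152 in wild type replicates 1, 2 and 3. Every deletion array was below every wild-type array, as for 164 of all genes (3.04%), and the highest wild-type value was that of replicate 1. The means were 124 ± 11 in the deletion and 171 ± 44 in wild type (SD, n = 3 each). The difference was -0.44 (SE 0.18), with a 95% interval of -0.88 to 0.0056. It did not pass over all genes (limma adjusted p = 0.932). Ranked by p it was number 302 of the 5402 genes. An exact permutation over the arrays (2-sided) gave p = 0.1, which is the smallest value possible with 3 against 3.

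The pairs of PXA2 differed by -0.78, -0.08 and -0.45 in replicates 1, 2 and 3, and PXA2 was the 1 gene of the 10 lower in all 3 pairs, as 14.7% of all genes were. Without wild type replicate 1 the difference was -0.24 (SE 0.11, adjusted p = 0.910), and in replicates 2 and 3 alone it was -0.27 (SE 0.10, adjusted p = 0.475). The limma adjusted p was 0.289 with the replicate block and 0.198 with the code form as a term. Its partner gene PXA1 differed by -0.03, and no test was made of the contrast between the partners. In RNA from whole cultures, less RNA per cell and fewer cells with the RNA cannot be told apart.

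**Figure D2:**
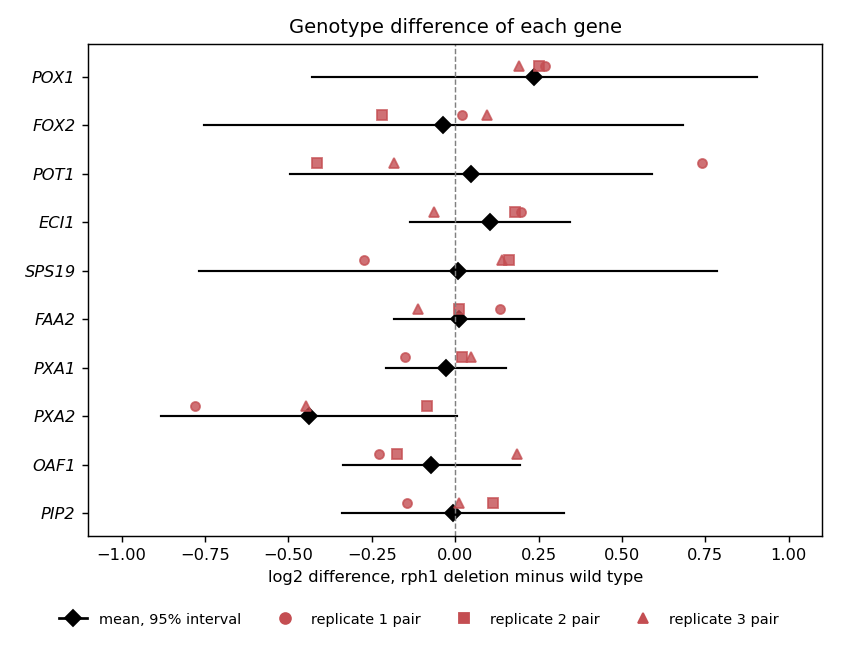
Log2 difference of each gene, rph1 deletion minus wild type, with the mean and its 95% interval from the limma fit of all arrays in black and the 3 same-numbered pairs as red points. The interval of PXA2 ends at 0.0056, and the other 9 intervals cover 0 more widely. In every gene but POX1 and PXA2 the pairs lie on both sides of 0.

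The oleate activators had differences close to 0. OAF1, the constitutive partner that senses fatty acids, read 357, 329 and 374 in deletion replicates 1, 2 and 3, against 418, 371 and 329 in wild type replicates 1, 2 and 3. PIP2, the partner that is itself induced by oleate, read 165, 210 and 222 in deletion replicates 1, 2 and 3, against 182, 194 and 220 in wild type replicates 1, 2 and 3. The strains overlapped in both genes. The differences were -0.07 (SE 0.11) for OAF1 and -0.0057 (SE 0.14) for PIP2. The pairs of OAF1 differed by -0.23, -0.17 and 0.19, and those of PIP2 by -0.14, 0.11 and 0.01, so that neither gene kept a direction.

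The arrays of replicate 1 differed from the others by more than the strains did in several of the 10 genes. In the fit with genotype and code form, 4 of the 10 passed at a limma adjusted p under 0.05, close to the 36.9% of all genes. SPS19 was higher in replicates 2 and 3 by 0.81 (SE 0.11, adjusted p = 0.00599) and POX1 by 0.72 (SE 0.062, adjusted p = 0.00193), and PIP2 by 0.29 (SE 0.082, adjusted p = 0.0381). FOX2 was lower in replicates 2 and 3, by -0.75 (SE 0.095, adjusted p = 0.00460). FOX2 thus differed in the opposite direction from POX1, the gene of the step before it. The spread within a strain was a median of 0.23 (residual SD, log2) for the 10 genes, against 0.14 over all tested genes. The strain difference changed with the replicate set in 0 of the 10 genes at a limma adjusted p under 0.05 and in 3 at an unadjusted p under 0.05, POT1, PXA2 and SPS19. Over all genes 6.63% were under that unadjusted threshold, and 0 passed after adjustment. That test was added after the data were seen.

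**Figure D3:**
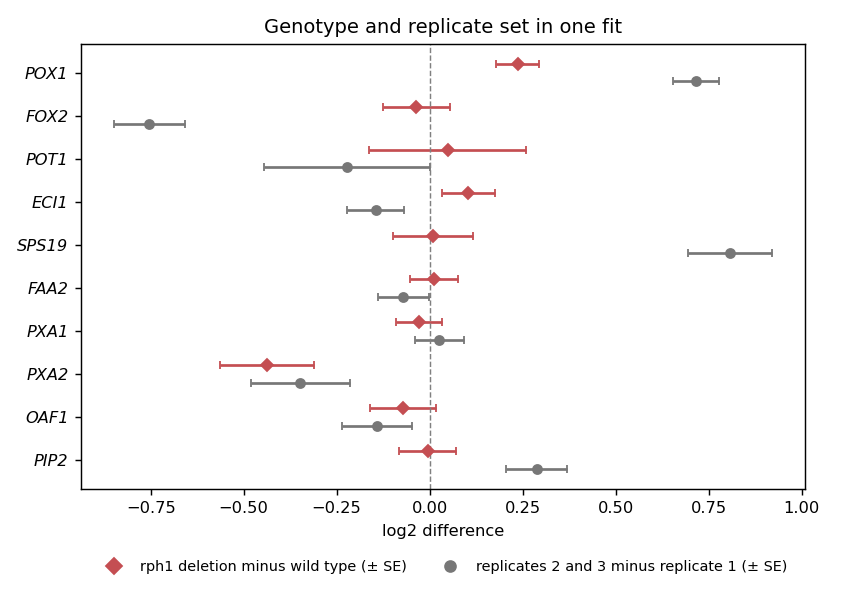
Coefficients of 1 limma fit for each gene, with SE bars: the rph1 deletion minus wild type (red diamonds) and replicates 2 and 3 minus replicate 1 (grey circles), on the log2 scale. SPS19, POX1 and FOX2 have replicate differences of 0.81, 0.72 and -0.75, and strain differences of 0.0088, 0.24 and -0.04.

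Genes that work beside the pathway gave no call either. Of 18 other peroxisomal and fatty acid enzymes, 10 were higher and 8 lower in the deletion, with a median of 0.010. Limma called 0, with 0 at an unadjusted p under 0.05, or 3 with the replicate block, all higher (MDH3, GPD1 and TES1). Over all genes 5.33% were under that unadjusted threshold, or 13% with the replicate block. The 3 with the smallest p were MDH3, GPD1 and TES1. MDH3, the peroxisomal malate dehydrogenase, had the smallest p of the list, at 2277, 2353 and 2131 in deletion replicates 1, 2 and 3, against 1921, 2052 and 2027 in wild type replicates 1, 2 and 3. MDH3 was the 1 gene of the 18 with every deletion array above every wild-type array, a pattern of 7.55% of all genes. The MDH3 difference was 0.17 (SE 0.075, limma adjusted p = 0.933). GPD1, a glycerol phosphate dehydrogenase found partly in peroxisomes, differed by 0.37 (SE 0.19), with pairs at 0.20, 0.40 and 0.53. The GPD1 limma adjusted p was 0.162 with the replicate block and 0.102 with the code form as a term. TES1, the peroxisomal thioesterase, differed by 0.16 (SE 0.090). CTA1, the peroxisomal catalase that removes the hydrogen peroxide made by Pox1, differed by 0.0017 (SE 0.23).

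The 5 genes of the carnitine shuttle, which carries acetyl units out of the peroxisome and into mitochondria, had a median of 0.13. Of these, 4 were higher and 1 lower, where 50.4% of all genes were higher. Of the 5, 0 passed or reached an unadjusted limma p under 0.05. With the replicate block 1 reached it, AGP2, against 13% of all genes. CRC1, the mitochondrial carnitine carrier, read 42.2, 41.2 and 49.4 in deletion replicates 1, 2 and 3, against 39.4, 37.2 and 28.0 in wild type replicates 1, 2 and 3. The deletion arrays were all above the wild type, as for 7.55% of all genes, by a difference of 0.35 (SE 0.15, limma adjusted p = 0.932). AGP2, a plasma membrane protein needed for carnitine uptake, differed by 0.39 (SE 0.20), with pairs at 0.38, 0.39 and 0.39 (limma adjusted p = 1.00, or 0.107 with the replicate block). With the code form as a term the AGP2 limma adjusted p was 0.0547. CAT2, the carnitine acetyltransferase, differed by 0.13 (SE 0.10).

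Peroxins build the organelle, and 27 genes for peroxins and peroxisome inheritance were measured. In the deletion 19 were higher and 8 lower, where 50.4% of all genes were higher. The median was 0.083 and limma called 0. At an unadjusted p under 0.05 there were 3, all higher, against 5.33% of all genes in either direction, and with the replicate block 7, all higher, against 13% of all genes. In 8 of the 27 every deletion array lay above every wild-type array, a pattern seen in 7.55% of all genes. In 1 of the 27 every deletion array lay below, as for 3.04% of all genes. By pairs, 13 were higher in all 3 and 2 were lower in all 3, against 19.9% and 14.7% of all genes. The list's medians in the pairs were 0.13, 0.14 and 0.088 in replicates 1, 2 and 3. PEX22, the anchor of the ubiquitin-conjugating enzyme Pex4 on the peroxisome, read 566, 453 and 483 in deletion replicates 1, 2 and 3, against 382, 367 and 319 in wild type replicates 1, 2 and 3. The 3 deletion values were all above the highest wild-type value. The PEX22 difference was 0.49 (SE 0.12, limma adjusted p = 0.434), that of PEX30, which acts on peroxisome number, was 0.41 (SE 0.12, adjusted p = 0.536), and that of PEX2, a ubiquitin ligase subunit of the import machinery, was 0.20 (SE 0.065, adjusted p = 0.642). With the code form as a term the limma adjusted p was 0.0600 for PEX22, 0.0622 for PEX30 and 0.132 for PEX2.

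The 12 other regulators split into 6 higher and 6 lower, with a median of -0.00046. Limma called 0, with 0 at an unadjusted p under 0.05, or 3 with the replicate block, SNF1 and SIP2 higher and ADR1 lower. Among all genes the replicate block put 13% under that unadjusted threshold. SNF1, the kinase that lifts glucose repression, differed by 0.16 (SE 0.070, limma adjusted p = 0.950), and its beta subunit gene SIP2 by 0.19 (SE 0.11). ADR1, which acts with Oaf1 and Pip2 at beta-oxidation genes, read 111, 286 and 285 in deletion replicates 1, 2 and 3, against 188, 335 and 370 in wild type replicates 1, 2 and 3. ADR1 was lower in every same-numbered pair, and replicate 1 was low in both strains. Its difference was -0.45 (SE 0.44), with an adjusted p of 0.128 once the code form was a term.

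Markers of low glucose were given beside these results because the pathway is held down by glucose. In the deletion 10 of the 15 were higher and 5 lower, where 50.4% of all genes were higher. The median was 0.16, and 0 were called by limma. At an unadjusted limma p under 0.05 there was 1, against 5.33% of all genes. With the replicate block there were 3, 2 higher and 1 lower, against 13% of all genes. The medians of the pairs were 0.14, -0.13 and 0.46 in replicates 1, 2 and 3, so the direction of the list turned in replicate 2. The 1 gene at an unadjusted p under 0.05 was ACS1, the acetyl-CoA synthetase of non-fermenting cells. Its difference was 0.32 (SE 0.090, limma adjusted p = 0.511, or 0.0667 with the code form as a term). HSP26, a small heat shock protein gene, differed by 0.44 (SE 0.27), with pairs at 0.29, 0.42 and 0.59. The HSP26 limma adjusted p was 0.124 with the replicate block and 0.123 with the code form as a term. JEN1, the lactate carrier, differed by 0.28 (SE 0.19). The JEN1 pairs differed by -0.13, 0.50 and 0.46. Of the other higher markers, FBP1 differed by 0.60 (SE 0.61), MLS1 by 0.56 (SE 0.44) and ICL1 by 0.30 (SE 0.24). PCK1 differed by 0.21 (SE 0.36), SFC1 by 0.16 (SE 0.51), SPI1 by 0.10 (SE 0.76) and GLK1 by 0.0014 (SE 0.16). Of the 5 lower markers, HSP12 differed by -0.30 (SE 0.21) and ADH2 by -0.17 (SE 0.60). SSA3 differed by -0.06 (SE 0.18), TKL2 by -0.04 (SE 0.20) and HXK1 by -0.00051 (SE 0.23). The summed signal of the 15 genes ran from 7916 to 11826 on the deletion arrays and from 8431 to 11564 on the wild-type arrays, and none of the markers was at 0. The 10 measured markers of fermenting growth differed by a median of -0.062, with 0 called. Of these markers 1 was higher and 9 lower, where 50.4% of all genes were higher. Their medians in the pairs were -0.12, -0.15 and 0.083, with the direction turned in replicate 3, and 0 of the 10 were lower in all pairs. Their sums were 56044 to 67168 on deletion arrays and 54751 to 72965 on wild-type arrays. The 3 with the smallest p were RPL3 (-0.08), TDH3 (-0.08) and ENO2 (-0.05). Their part in the values of the 10 genes was not tested.

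**Figure D4:**
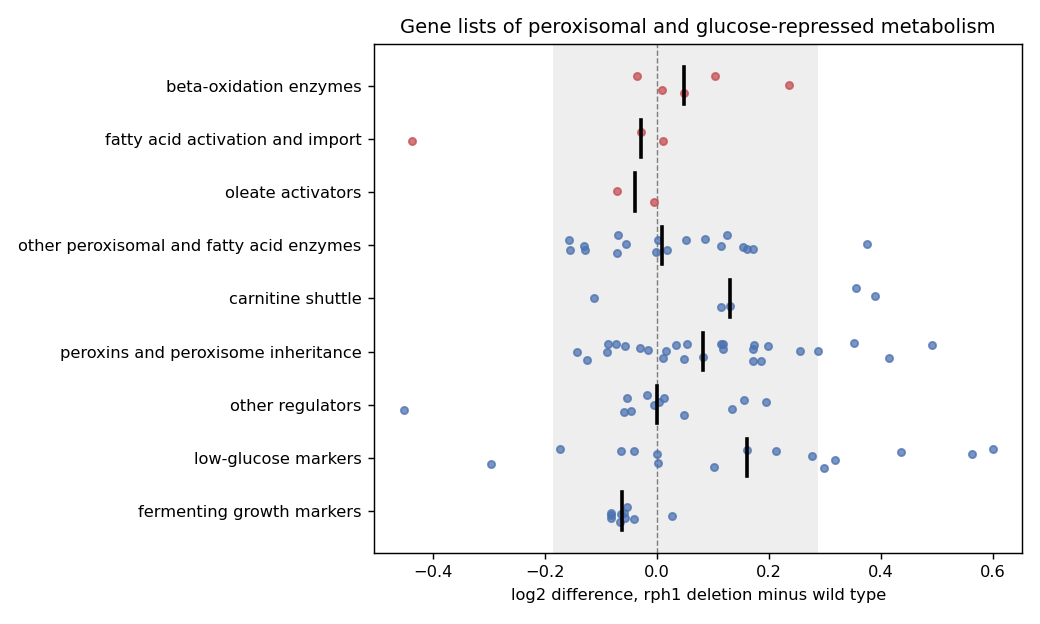
Log2 difference, rph1 deletion minus wild type, of every measured gene in each list, with the list's median as a black bar. Red points are the 10 genes and blue points the other lists, and the grey band spans the 5th to 95th percentile of all tested genes, -0.18 to 0.29. PXA2, at -0.44, is the 1 red point outside the band.

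Averaged over the 10 genes, each centred on its own mean, the log2 signal varied between -0.021 and 0.014 on the 6 arrays, because the differences of single genes ran in opposite directions. The genes whose signals correlated most closely with this average over the 6 arrays were MNN5 (r = 0.993), PGA3 (r = 0.985), DFG5 (r = 0.985) and FRE6 (r = 0.979). An r compares shape and not size, and these genes varied far more than the average did. DFG5 read 1374 in deletion replicate 1 and 2055 in wild type replicate 3. All were lower in the deletion, with differences of -0.19, -0.13, -0.26 and -0.24 in that order, and limma called none of them. The average itself was -0.021, -0.0052 and 0.00074 in deletion replicates 1, 2 and 3, against 0.00063, 0.011 and 0.014 in wild type replicates 1, 2 and 3. It did not split by code form. The correlations are descriptions of 6 points, and 1.30% of the other genes had an r above 0.9.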

How the data were processed

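Per the submitters' processing notes, the authors used MAS5, which summarises an Affymetrix probe set as a single value. The deposited table holds that intensity without a log. The sources used here give neither the version of MAS5 nor its scaling target. The 2% trimmed mean was 500.2 on each array, so the values were used as deposited. Of 10928 probe sets, 5498 matched 1 S. cerevisiae gene each through the platform annotation and the RefSeq gene table (assembly R64, for names). No coordinates are given, since the files name no build. The brightest probe set was kept for a gene with several. Tested genes had a mean log2 signal above 3.06, a level that 95% of the 1746 fission yeast probe sets fell below. This left 5402 of 5449 genes, all 10 members among them.

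Log2 signals were compared by lmFit and eBayes of limma 3.58.1 (R 4.3.3), 2-sided, with genotype alone in the model and an adjusted threshold of 0.05. The script was tested on simulated data. Each other list names its 3 genes of smallest unadjusted p, and CTA1 and the remaining low-glucose markers were named after their values were seen. The members and lists were chosen with earlier results of these data known. Deviations from the group means correlated at 0.768, 0.454 and 0.415 between arrays of the same number, all above 0.1, so the replicate numbers were taken as pairs. The pairing comes mainly from replicate 1 standing apart. Crossed pairs of replicates 2 and 3 correlated more than same-numbered ones (0.535 for deletion 2 with wild type 3, 0.471 for deletion 3 with wild type 2), so these values do not show that numbers 2 and 3 pair the arrays. Alternatives were the replicate block, the sample code form as a batch term, replicates 2 and 3 alone, other scalings, an offset of 32, no filter, an intensity trend, the dimmest probe set and single arrays left out. The planned search for promoter motifs was not run. The number of arrays limits precision. Figures used matplotlib 3.10.9 in Python 3.11.15.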

Additional observations from a re-analysis of the deposited data

How the results depend on the processing

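No setting brought any of the 10 genes or any gene of the other lists past the threshold, and the replicate block changed no call among them. Over all genes, limma called 6 with the replicate block and 34 with the code form as a batch term, against 2 over all arrays, and 1 after quantile normalization, with an offset of 32 or with an intensity trend. Leaving out single arrays gave 1 to 2. The median of the 10 genes stayed within -0.047 to 0.044. Genes near 0 turned direction under some settings. In replicates 2 and 3 alone POT1 was at -0.30, FAA2 at -0.050, PXA1 at 0.033, OAF1 at 0.0058 and PIP2 at 0.063. SPS19 and FAA2 were at -0.0024 and -0.035 after quantile normalization, and at -0.027 and -0.025 after median centring, which put the median of all genes at -0.035. With single arrays left out the ranges were -0.010 to 0.47 for POX1 (below 0 without wild type replicate 1), -0.30 to 0.20 for FOX2, -0.20 to 0.22 for POT1, -0.20 to 0.35 for SPS19, -0.043 to 0.067 for FAA2, -0.057 to 0.011 for PXA1, -0.16 to 0.014 for OAF1 and -0.090 to 0.12 for PIP2. ECI1 and PXA2 kept their direction in every setting, at -0.57 to -0.24 for PXA2 with single arrays left out. The cause of these turns was not tested.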
